A study of Drosophila melanogaster with 6 samples.

Results

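The change between an early and a late point of starvation, day 2 and day 5, was followed in the clusters of nuclei outside ovary, oenocytes and fat body. Whole bodies of female flies without heads were used, of the genotype PromE-gal4, Tub-gal80ts, in which an oenocyte driver is held back by a temperature-sensitive repressor. All flies were grown at 18 °C and then moved to 29 °C, for which the labels give both 5 and 7 days. Fed flies and flies starved for 2 or 5 days were each profiled by single-nucleus RNA sequencing in 2 libraries. Nuclei were chosen by the deposited annotation as those of clusters 0, 1, 2, 8, 9, 10, 12, 13, 16 and 17, and they numbered 13950 in the 4 starved libraries, of 43027 nuclei in all. Day 2 replicates 1 and 2 held 4267 and 4213 of them, and day 5 replicates 1 and 2 held 2663 and 2807. The fed libraries, with 12284 nuclei of the same clusters, served to estimate the spread and are given as a reference level. Whether the libraries of 1 condition hold nuclei of different flies is not given in the sources used here, and p-values therefore measure the spread between libraries, which may be technical.

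Starvation lowers insulin and TOR signalling, which slows the making of ribosomes and proteins and frees the transcription factor foxo to raise genes such as *InR*, the insulin receptor, and *Thor*, the 4E-BP repressor of cap-dependent translation. Stored triglyceride and glycogen are then drawn down, and egg production stops. *MtnA*, *MtnD* and *MtnE* encode metallothioneins, small proteins that bind copper, zinc and cadmium ions.

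The annotation names cluster 0 indirect flight muscle, clusters 1 and 13 muscle, cluster 2 epithelial cells, cluster 8 glia, cluster 9 neurons, cluster 16 pylorus and cluster 17 hemocytes. Of 4 flight muscle markers, *fln* and *TpnC4* were highest in cluster 0, *sls* in cluster 13 and *Act88F* in cluster 21, outside the body clusters. Of 5 pylorus or hindgut markers, *byn* and *otp* were highest in cluster 16, and *dve*, *fz3* and *drm* in clusters 12, 8 and 24. All 6 hemocyte markers were highest in cluster 17. Of 5 glial markers, *repo* and *Eaat1* were highest in cluster 8, and *nrv2*, *Gs2* and *moody* in clusters 24, 16 and 3. *esg*, listed as a marker of enteroendocrine or stem cells, was also highest in cluster 8. Its name of glia is therefore used below only as the annotation gives it. Against its name of trachea, cluster 10 was not the highest cluster for any of 5 tracheal markers: *trh*, *Gasp* and *serp* were highest in cluster 2, *btl* in cluster 16 and *sty* in cluster 17. Cluster 2 was the highest for *Cht5* and *grh* of the 6 epidermis markers measured, so its name of epithelium is used below as the annotation gives it. Cluster 12 is named for Malpighian tubule and pericardial cells, yet all 6 enterocyte markers (*nub*, *alphaTry*, *betaTry*, *Amy-p*, *Npc1b* and *mex1*) were highest there. Clusters 10 and 12 are therefore called by number. A cluster held between 43 and 1265 nuclei in a starved library. Median unique molecular identifiers (UMIs, tags of single RNA molecules) per nucleus were lower in both day 5 libraries than in both day 2 libraries in 7 clusters and higher in clusters 12 and 13. Pairs of starved libraries shared between 3 and 9 cell barcodes. Ovary clusters, whose RNA can be carried in solution to other nuclei, made up 34.6% and 34.9% of the nuclei at day 2 and 18.4% and 19.6% at day 5.

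Levels are UMIs of a gene per 10000 UMIs of a library and cluster, and differences are day 5 minus day 2 on the log2 scale. Of 8539 genes tested in at least 1 cluster, 3416 changed in at least 1, and 2157 of these in a single cluster (limma, Benjamini-Hochberg adjusted p under 0.05). Cluster 0, the flight muscle, changed most: 781 genes were higher and 1654 lower at day 5, which was 41.3% of the 5898 tested. In muscle cluster 1, 445 (8.61%) were higher and 849 (16.4%) lower, together 25.0% of those tested. The epithelial cluster 2 had 147 higher (2.37%) and 322 lower genes (5.19%), together 7.56%. Cluster 12 had 190 (2.86%) and 342 (5.15%), together 8.01%. In glia 70 genes (2.16%) were higher and 106 (3.27%) lower, together 5.43%. Neurons had 69 higher (1.59%) and 183 lower genes (4.23%), together 5.82%, and cluster 10 had 101 (2.66%) and 130 (3.43%), together 6.09%. In hemocytes 21 (1.89%) were higher and 38 (3.42%) lower, together 5.31%. Muscle cluster 13 had 15 (0.542%) and 17 (0.614%) changed genes, together 1.16%, and the pylorus 10 (0.252%) and 33 (0.832%), together 1.08%. The number of nuclei, and with it the precision, was largest in cluster 0, so these counts do not rank the clusters by the size of their response.

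The excess of lower genes depended on the scaling. With the total UMIs as the scale, the median gene fell by 0.24 in cluster 0 and by 0.15 in cluster 1, and with median-ratio factors by 0.02 and 0.03. On that scale 1246 genes were higher and 1013 lower in cluster 0, and 669 and 677 in cluster 1. On the mean deposited value cluster 12 had 432 higher and 114 lower genes, a reversed split, in nuclei whose median UMIs had risen from 7460.5 and 8512.5 to 10737 and 9693. On that value cluster 13 had 55 higher and 7 lower genes and the pylorus 6 and 2. The other clusters had more lower than higher genes, most unevenly cluster 10, with 65 and 655. Without day 2 replicate 1 the glia, neurons, cluster 10, pylorus and hemocytes were left with 7, 16, 0, 0 and 0 changed genes, and without day 2 replicate 2 with 16, 9, 0, 0 and 30. Without day 5 replicate 1 they had 370, 593, 781, 90 and 64, and without day 5 replicate 2 387, 549, 758, 480 and 48. Without fed replicate 1 or 2, clusters 16 and 17 had 0 and 9 or 0 and 13.

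**Figure D1:**
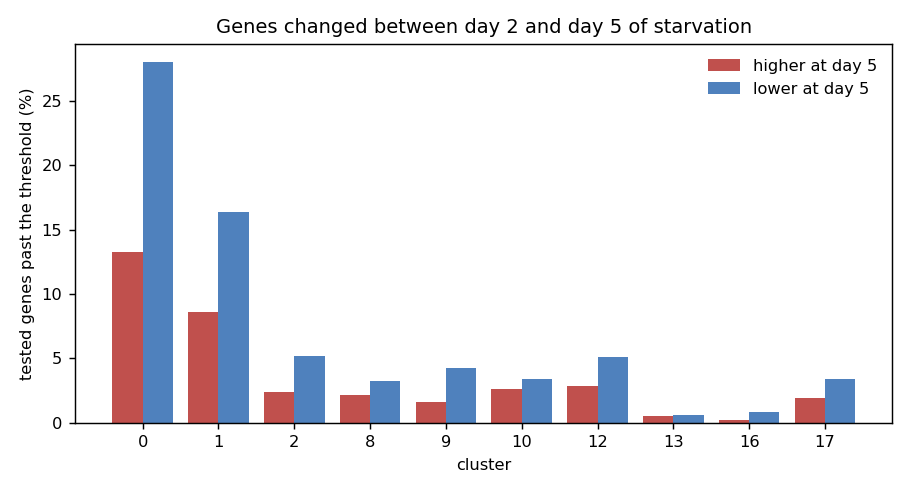
Share of tested genes (%) that were higher (red) or lower (blue) at day 5 than at day 2 in each cluster (limma, adjusted p under 0.05). The bars are tallest in cluster 0, with 13.2% higher and 28.0% lower, and lowest in clusters 13 and 16.

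A gene was taken as shared when it changed in the same direction in at least 5 of the 10 clusters, in the opposite direction in none, and in the mean over the clusters. This mean was tested for 2759 genes, of which 408 were higher and 746 lower at day 5 (41.8%; 14.8% higher and 27.0% lower). With median-ratio factors 610 were higher and 592 lower. By the definition above, 21 genes rose together (0.761% of the 2759) and 64 fell together (2.32%), and 21 and 51 of them were shared on the median-ratio scale as well. The clusters of a library were made from the same flies and are not independent of each other. The number of shared genes rested on both day 2 libraries, since without day 2 replicate 1 it was 0 rising and 5 falling, and without replicate 2 it was 2 and 7. Without fed replicate 1 the falling genes numbered 23 and without replicate 2 27, and without day 5 replicate 1 or 2 they were 129 and 108.

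*MtnA* rose in all 10 clusters. As a mean over the clusters its level was 3.83 and 4.55 in the fed libraries, 10.3 and 10.5 at day 2 and 26 and 22.7 at day 5 (day 5 minus day 2 1.23, SE 0.08, adjusted p = 1.64e-06, limma). Both day 5 libraries stood above both day 2 libraries, which already stood above the fed ones. The gene lies on chromosome arm 3R at 9783407-9784370, minus strand, in the Ensembl annotation of the BDGP6 assembly. Among the body clusters its level was highest in cluster 12, at 24.1 and 22.2 on day 2 and 47.6 and 49.6 on day 5, and its largest difference was in the pylorus (1.87, SE 0.24, adjusted p = 0.0343, limma). *MtnE* and *MtnD* are neighbours on 3R, at 20534021-20534704 on the minus strand and 20534962-20535301 on the plus strand. *MtnE* went from 0.368 and 0.500 at day 2 to 1.94 and 2.12 at day 5 (difference 2.24, SE 0.14, adjusted p = 1.07e-06, limma) and rose in 8 of the 9 clusters tested. *MtnD* went from 0.174 and 0.258 to 1.51 and 1.51 (difference 2.83, SE 0.26) and rose in 6 of 8. For each of these 3 genes both day 5 libraries thus lay above both day 2 libraries, and *MtnD* had the largest difference of the 21 shared rising genes. In the mean over the clusters, 1922 of all 2759 genes had no overlap between day 2 and day 5 libraries, in 1 direction or the other.

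Of the insulin and TOR list, *Thor* and *InR* were among the 21 shared rising genes. *Thor* stood at 3.78 and 4.17 in the fed libraries, 3.82 and 4.30 at day 2 and 7.91 and 7.34 at day 5 (difference 0.91, SE 0.08, adjusted p = 7.14e-06, limma). The day 2 and fed libraries overlapped, and both day 5 libraries lay above all 4. It rose in 6 of 10 clusters, by 1.46 in flight muscle, 1.83 in cluster 1, 1.98 in cluster 13, 1.41 in the epithelium, 1.09 in neurons and 0.45 in cluster 12. In the pylorus the difference was -0.16 and in hemocytes -0.26, neither past the threshold. In fat body *Thor* fell by 0.62 (adjusted p = 1.1e-06, limma). *Lk6*, the kinase that phosphorylates the cap-binding factor eIF4E, went from 14.1 and 14.4 at day 2 to 25.4 and 24 at day 5 (difference 0.79, SE 0.04, adjusted p = 3.88e-07, limma) and rose in 8 of 10 clusters. *InR* went from 9.25 and 9.68 to 14.4 and 13.9 (difference 0.58, SE 0.05, adjusted p = 4.91e-06, limma). It rose in 6 of 10 clusters, most in cluster 10 (1.35), while in neurons the difference was 0.04. *InR* overlaps the genes *lncRNA:CR44034* and *lncRNA:Irar* at its locus on 3R.

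**Figure D2:**
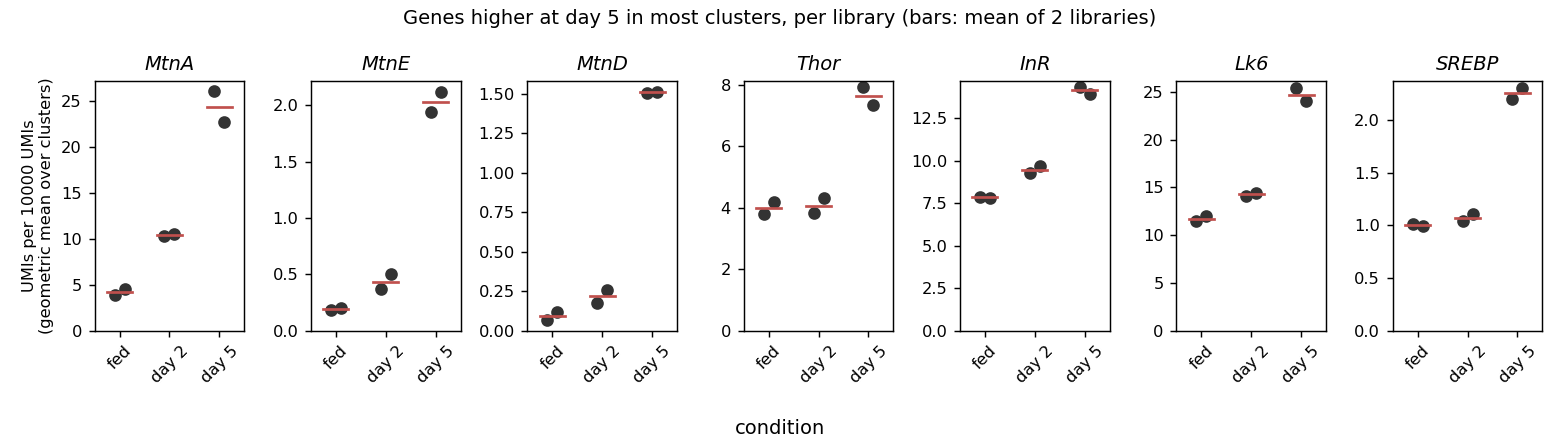
Level in UMIs per 10000 UMIs (vertical axis, geometric mean over the clusters where the gene was tested) of 7 shared rising genes in the 2 fed, 2 day 2 and 2 day 5 libraries. Each point is a library and each bar the mean of 2; the day 5 libraries stand above the day 2 libraries for every gene shown, while *Thor* and *SREBP* at day 2 lie near the fed level.

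*SREBP*, the transcription factor of fatty acid and phospholipid synthesis, went from 1.04 and 1.10 at day 2 to 2.21 and 2.31 at day 5 (difference 1.07, SE 0.08, adjusted p = 3.84e-06, limma), with fed levels of 1.01 and 0.992. It rose in 6 of 9 clusters, by 1.53 in flight muscle and 1.87 in cluster 13, and differed by 0.25 in glia (adjusted p = 0.672, limma). *Pcyt1*, the rate-limiting enzyme of phosphatidylcholine synthesis, rose in 5 clusters (1.15 in the mean), and the lipophorin receptor gene *LpR2* rose in 6 (0.30). *LpR2* went from 3.73 and 3.11 to 4.04 and 4.36, within its fed levels of 3.50 and 4.39. In fat body it fell by 0.21 (adjusted p = 0.000911, limma). The stress factors *Xbp1* (0.72), of the unfolded protein response, and *kay* (0.52), the fly Fos, each rose in 5 clusters. *CG10383* went from 0.831 and 0.695 to 3.45 and 3.98 (difference 2.29, SE 0.11, adjusted p = 2.2e-07, limma). *CG34166* took another course, since its level of 1.25 and 1.18 in fed flies was down to 0.288 and 0.310 at day 2 and back to 1.12 and 1.01 at day 5 (day 5 minus day 2 1.84, SE 0.10, adjusted p = 3.88e-07, limma). It was highest in fat body, at 25.7 against a median of 0.909 in the body clusters, and rose there by 2.51 (adjusted p = 2.94e-14, limma). Whether its RNA in the body clusters was carried over from fat body was not tested. *CG10077* completed the 10 rising genes named by the rule, with a difference of 0.54 and calls in 6 of 10 clusters. Direction and call of these 10 genes and of the 10 falling genes below held in the mean over the clusters in all 320 alternative values computed.

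**Figure D3:**
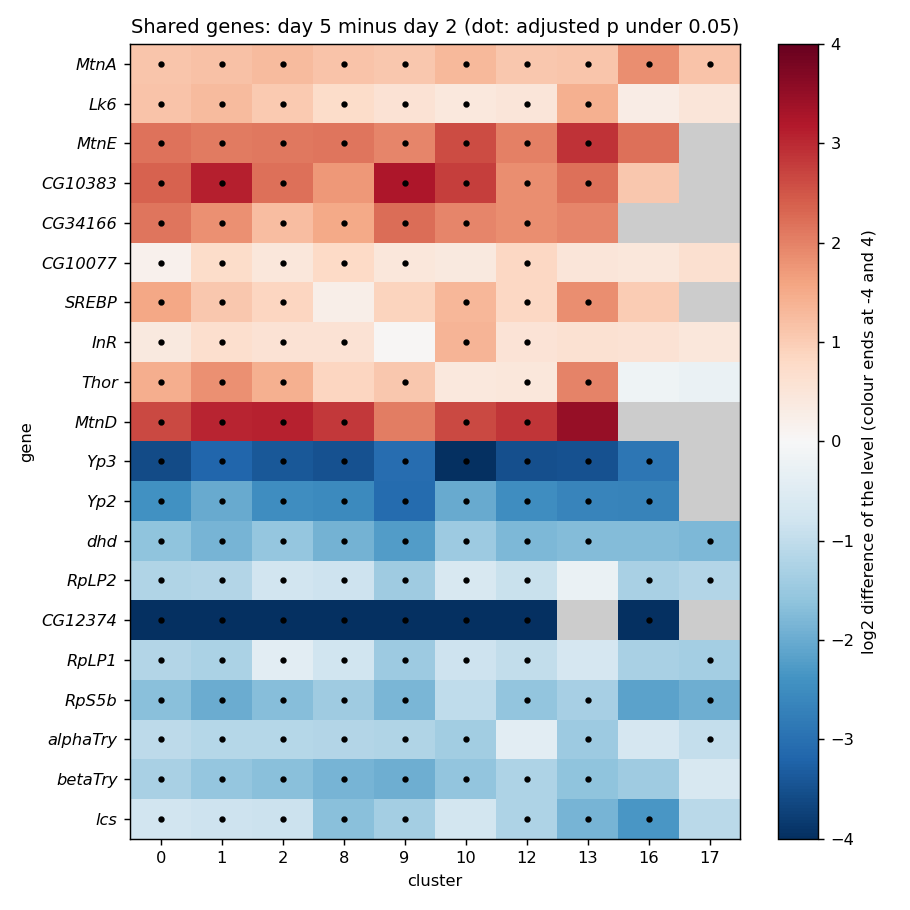
Log2 difference, day 5 minus day 2, of the 10 rising and 10 falling genes named by the rule (rows) in each cluster (columns), from blue (lower at day 5) to red (higher). Dots mark an adjusted p under 0.05 and grey marks genes not tested; *MtnA* has dots in all 10 clusters.

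By the gene lists, the 64 shared falling genes held 21 of the cytosolic ribosomal proteins, 5 of the digestive enzymes, all 3 yolk proteins and 1 of the germline transcripts. *Yp3* and *Yp2* encode yolk proteins, which fat body and follicle cells make for the egg. The level of *Yp3* was 3.77 and 3.81 in the fed libraries, 1.82 and 1.95 at day 2 and 0.162 and 0.189 at day 5 (difference -3.43). *Yp2* stood at 4.21 and 4.31, then 1.00 and 0.947, then 0.188 and 0.160 (difference -2.49). Both fell in all 9 clusters tested. Each step downward, from fed to day 2 and from day 2 to day 5, was without overlap between libraries. *CG12374*, which was highest in cluster 12, fell from 1.04 and 1.03 at day 2 to 0.0448 and 0.0352 at day 5 (difference -4.70, adjusted p = 2.05e-09, limma) and fell in all 8 clusters tested. The trypsin genes *alphaTry* (-1.06) and *betaTry* (-1.48), also highest in cluster 12, fell in 8 of 10 clusters each. In cluster 12 itself *alphaTry* went from 17.4 and 12.4 to 12.4 and 9.79 and did not pass the threshold (difference -0.42, adjusted p = 0.168, limma), whereas *betaTry* went from 6.27 and 4.92 to 2.71 and 2.02 and did. *alphaTry* and *betaTry* are closely related neighbours on 2R, between which the counting could have split reads. *lcs* went from 1.71 and 1.42 to 0.681 and 0.615 (difference -1.27).

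Of the germline transcript list 8 of 10 tested members fell in flight muscle (28.0% of all genes lower), 6 of 10 in cluster 1 (16.4%) and 5 of 10 in the epithelium (5.19%), and none rose in any cluster. Per 10000 UMIs the list summed to 120 and 119 in flight muscle at day 2 and 71.8 and 72.6 at day 5. In cluster 1 it summed to 8.09 and 9.39, then 4.65 and 4.27. The germline markers *osk*, *nos*, *vas* and *orb* were at most at 0.475 in flight muscle. At day 2 the list summed to 65.7 and 78.8 in germline cluster 6 and to 106 and 139 in germline cluster 21. The sum in flight muscle is therefore not read as a measure of germline RNA, and its source was not tested. Of this list only *CycB* was among the shared falling genes. *dhd*, a thioredoxin of the egg, was at 6.65 and 6.15 at day 2, near its fed level of 6.58 and 6.34, and at 1.97 and 1.80 at day 5 (difference -1.76, adjusted p = 5.62e-08, limma), and it fell in 9 of 10 clusters. *RpS5b*, the ovary form of a ribosomal protein, went from 2.42 and 2.18 to 0.790 and 0.667 (difference -1.66) and fell in 8 of 10. It is counted with the ribosomal protein list. The mitotic cyclin genes *CycB* (-1.68) and *CycA* (-1.43), the primordial germ cell gene *pgc* (-2.10) and *yl*, the yolk receptor of the oocyte (-1.69), each fell in 5 or 6 clusters. Of the 64 falling genes, 43 had their highest level of any cluster in an ovary cluster (67.2%, against 54.7% of all 2759 genes), 8 in cluster 12 and 9 in a cluster outside body and ovary. Of the 21 rising genes, 5 were highest in the ovary (23.8%) and 11 in a body cluster (52.4%, against 31.7% of all). The share of ovary nuclei fell over the same interval, by the values given above, and its part in these falls was not tested. The summed RNA of the yolk protein genes lay between 1.76 and 10.7 per 10000 UMIs in the clusters of the day 2 libraries and between 0.28 and 2.49 in those of the day 5 libraries, and in each cluster both day 5 values were below both day 2 values. Eggshell RNA per 10000 UMIs was lower at day 5 in most clusters but was 6.70 and 7.28 at day 2 and 11.5 and 12.2 at day 5 in cluster 10. Less RNA per nucleus and fewer nuclei that hold a transcript cannot be told apart in these sums.

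Among the lists, cytosolic ribosomal proteins had the most shared falling genes, 21 of the 64. The list held 88 genes, and 2.32% of all 2759 genes were shared falling genes. Each of the 21 had its highest level of any cluster in ovary cluster 6. That cluster held 448 and 499 nuclei at day 2 and 74 and 75 at day 5. The part of ovary RNA in these falls was not tested. *RpLP2*, a protein of the ribosomal stalk, was at 15.8 and 15.2 in fed flies, 15 at day 2 in both and 7.41 and 7.92 at day 5 (difference -0.97, adjusted p = 2.2e-07, limma), and it fell in 9 of 10 clusters. *RpLP1* went from 10.6 and 10.0 to 5.09 and 5.07 (difference -1.02) and fell in 8. The level at day 2 thus lay near the fed level for both, and both day 5 libraries lay below. Of the whole list, 82 of 84 tested members fell in flight muscle, where 28.0% of all genes were lower, and 81 of 84 in cluster 1 (16.4%). In neurons 65 of 82 fell (4.23% of all genes), in cluster 12 34 of 83 (5.15%), in hemocytes 22 of 79 (3.42%) and in glia 15 of 82 (3.27%). In the pylorus 5 of 82 fell (0.832%) and in cluster 10 6 of 82 (3.43%). The 4 of 84 in the epithelium (5.19%) and 1 of 82 in cluster 13 (0.614%) were near the share of all genes. The median difference of the list was -0.83 in flight muscle (all genes -0.24), -0.89 in neurons (all -0.11), -0.98 in the pylorus (all -0.07) and -0.01 in the epithelium (all -0.09). With median-ratio factors the median in the epithelium was 0.06, and the other 9 kept their sign. The single riser was *RpL24-like*, a factor of ribosome assembly that the list takes in by its symbol, which rose by 1.41 in flight muscle, 0.62 in cluster 1 and 1.22 in cluster 13. Against the other body clusters no ribosomal protein gene passed as lower in any cluster or as higher in the epithelium (limma). At an unadjusted p under 0.05, 73 of 83 were higher in the epithelium than in the others (median 0.63) and 34 of 83 were lower in flight muscle (median -0.27). With the trend of the variance on the level in the cluster, a fit added after these calls were seen, 52 were higher in the epithelium and 39 lower in flight muscle, so the epithelium passed in that fit and not in the one designed. With a UMI-weighted mean of the others the numbers were 0 and 4, and with both 67 and 73. Of the translation factor list 13 of 21 fell in cluster 0 (28.0% of all genes lower) and 10 of 21 in cluster 1 (16.4%), and 8 and 7 did on the median-ratio scale.

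**Figure D4:**
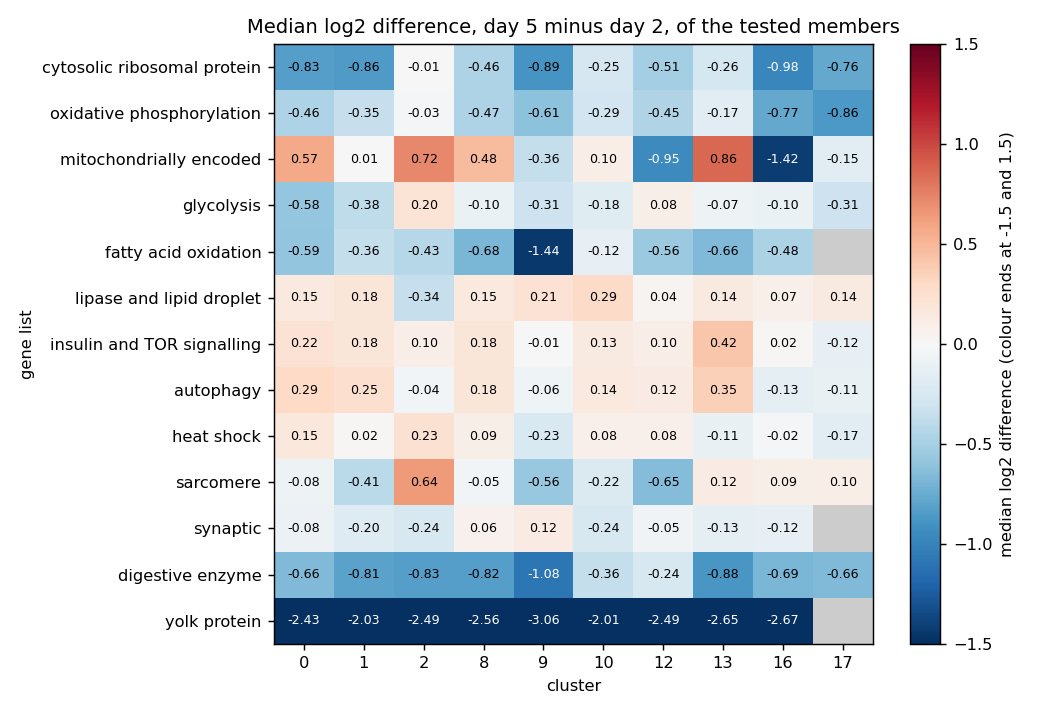
Median log2 difference, day 5 minus day 2, of the tested members of 13 gene lists (rows) in each cluster (columns), written in the cells; lists with fewer than 3 tested members in a cluster are grey. Yolk protein and digestive enzyme genes have negative medians in every cluster shown, and mitochondrially encoded genes run from -1.42 in cluster 16 to 0.86 in cluster 13.

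Of the nuclear genes of oxidative phosphorylation 46 of 68 tested members fell and 1 rose in flight muscle (28.0% of all genes lower), with a median of -0.46 (all genes -0.24). With median-ratio factors 30 fell and 4 rose there, with a median of -0.24. In cluster 1 24 of 67 fell (16.4% of all genes lower), with a median of -0.35 (all genes -0.15), and with median-ratio factors 19 did, with a median of -0.22. In the mean over the clusters 47 of 67 fell (27.0% of all genes lower) and none rose, and on the median-ratio scale 41 did. *Cyt-c-p*, cytochrome c, went from 6.11 and 6.49 to 1.94 and 2.25 in flight muscle (difference -1.59, SE 0.08), and fell in 6 clusters. *ATPsynC*, a ring subunit of ATP synthase, went from 8.64 and 8.10 to 3.74 and 3.50 there (difference -1.21, SE 0.06) and fell in 7. The mitochondrially encoded genes took different directions in different clusters. Their RNA is not made in the nucleus, and how it came into these libraries of nuclei was not tested. In flight muscle 9 of 12 rose (13.2% of all genes higher) and in the epithelium 8 of 11 (2.37%), while in cluster 12 6 of 11 fell (5.15% of all genes lower) and in the pylorus 4 of 10 (0.832%). *mt:CoI*, a cytochrome oxidase subunit gene, went from 11.8 and 11.8 to 23.0 and 22.8 in flight muscle, with fed levels of 15.2 and 14.4. In the pylorus it went from 7.71 and 6.60 to 2.10 and 3.28, near and below its fed levels of 3.77 and 3.45. *mt:CoI* rose in 4 clusters and fell in 2. In the epithelium its 2 day 5 libraries lay apart, at 23.9 and 14.8, on either side of the fed levels of 16.3 and 16.2. These directions were the same on the median-ratio scale.

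Of the glycolysis list 12 of 16 tested members fell in flight muscle (28.0% of all genes lower) and none rose, such as *Gapdh2*, which went from 2.87 and 2.66 to 1.35 and 1.37 (difference -1.02, SE 0.09, adjusted p = 1.18e-07, limma). On the median-ratio scale 11 fell and 1 rose. Of the fatty acid oxidation list 10 of 17 fell and 1 rose in flight muscle (7 and 1 on the median-ratio scale), 6 of 14 fell in cluster 1 (16.4% of all genes lower) and 6 of 18 in cluster 12 (5.15%). *scu*, a mitochondrial hydroxyacyl-CoA dehydrogenase, fell in 5 clusters, in flight muscle from 1.35 and 1.58 to 0.556 and 0.514 (difference -1.44, SE 0.13). *bmm*, the triglyceride lipase of the lipid droplet, rose in all 3 muscle clusters and in the epithelium. Its level in flight muscle was 0.631 and 0.706 in fed flies, 1.11 and 0.932 at day 2 and 4.42 and 4.07 at day 5 (difference 2.06, SE 0.12, adjusted p = 3.68e-10, limma), and the differences in clusters 1, 13 and 2 were 1.63, 1.81 and 1.02. *Lpin*, the phosphatidate phosphatase, rose in 4 clusters, most in cluster 10 (1.82). *Jabba*, a lipid droplet protein, fell in 6, in flight muscle from 0.726 and 0.925 to 0.220 and 0.312 (difference -1.62, SE 0.18) and in neurons by 2.29 on the log2 scale. *Jabba* is highest in fat body.

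Of the autophagy list 6 of 20 tested members rose and 2 fell in flight muscle (13.2% of all genes higher and 28.0% lower). In cluster 1 4 of 14 rose and none fell (8.61% and 16.4%). None of 9 changed in muscle cluster 13, where only 1.16% of all genes did, so that this count is near the share of all genes. *Atg1*, the kinase that starts autophagosome formation, went from 1.02 and 1.04 to 2.55 and 2.68 in flight muscle (difference 1.35, SE 0.11), and *Atg18b* from 1.62 and 1.63 to 5.30 and 5.04 (difference 1.67, SE 0.09). Both libraries of day 5 stood above both of day 2, and the fed levels were close to those of day 2. Of the insulin and TOR list 10 of 24 rose and 3 fell in flight muscle, where 13.2% of all genes were higher and 28.0% lower. *slif*, an amino acid transporter, fell in 4 clusters. Of the heat shock list 6 of 17 rose and 5 fell in flight muscle (13.2% and 28.0% of all genes), so that the fallen members were near the share of all genes. *Hsp26* fell in 5 clusters (by 1.26 in flight muscle) and *Hsp27* in 4, while *Hsp83*, the fly Hsp90, rose in the pylorus from 2.56 and 1.57 to 6.15 and 6.42, in cluster 12 by 1.00 and in cluster 10 by 0.75. *DnaJ-1* rose in 3 clusters.

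Of the sarcomere list 9 of 30 rose and 10 fell in flight muscle, where 13.2% of all genes were higher and 28.0% lower, so that the fallen members were near the share of all genes. In cluster 1 6 of 32 rose and 19 fell (8.61% and 16.4% of all genes), and in the epithelium 7 of 30 rose and none fell (2.37% and 5.19%). On the median-ratio scale flight muscle had 12 higher and 6 lower. *Mhc*, the muscle myosin heavy chain, went from 65.9 and 70.2 to 31.0 and 32.5 in cluster 1 (difference -1.10, SE 0.05, adjusted p = 9.81e-10, limma) and from 28.1 and 28.0 to 30.5 and 31.8 in flight muscle (difference 0.15, SE 0.03). *Msp300*, a nesprin that anchors muscle nuclei, rose in 5 clusters. In neurons 5 of 19 synaptic genes rose and none fell, against 1.59% of all genes higher there. *para*, the sodium channel gene, went from 104 and 115 to 141 and 152 (difference 0.42, SE 0.06, adjusted p = 0.00572, limma) and *Snap25* from 36.6 and 36.3 to 50.8 and 51.3 (difference 0.49, SE 0.06). *unc-13*, *Rdl* and *Syt1* made up the rest of the 5. In the hemocytes *Ppn*, a secreted matrix protein gene, went from 83.6 and 90.7 to 117 and 122, near its fed level of 120 and 110. *Hr4*, a nuclear receptor of the ecdysone response, went from 1.59 and 1.69 to 0.318 and 0.228 in glia (difference -2.47, SE 0.35, adjusted p = 0.0074, limma) with fed levels of 0.326 and 0.341, and it fell by 3.27 on the log2 scale in cluster 13.

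Of the cuticle protein list 10 of 21 tested members fell and 2 rose in the epithelium (5.19% and 2.37% of all genes). *Lcp65Ag2* went from 1.98 and 3.03 at day 2 to 0.0844 and 0.065 at day 5 (difference -4.85, SE 0.35, adjusted p = 0.000104, limma) and had been at 0.0788 and 0.123 in fed flies. After the values were seen, *Cpr47Eg*, *Lcp65Ag3*, *TwdlN* and *Cpr11A* were looked at because they had no UMI in either day 5 library. *Cpr47Eg* had 74 and 195 UMIs at day 2, from 12 and 28 nuclei of 868 and 881, and none in fed flies. At day 5 none of 419 and 433 nuclei held it. The other 3 were found at day 2 in 27 and 34, 16 and 27, and 10 and 21 nuclei. No fold change is given, since the UMIs came from few nuclei and the genes were chosen by their absence at day 5. These transcripts therefore came at day 2 from a small share of the epithelial nuclei in both libraries. *Cpr*, which the list takes in by its symbol, is a cytochrome P450 reductase and not a cuticle protein.

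To find changes that set a cluster apart, the change in it was tested against the mean change of the other body clusters in the same library. In flight muscle 294 of 4822 genes passed both this test and the test in the cluster (6.10%), 141 higher and 153 lower, and in cluster 12 8 of 4784 did (0.167%), 4 in each direction. In the other 8 clusters no gene passed (limma), although between 132 and 797 genes in each had an unadjusted p under 0.05. A trend of the variance on the level in the cluster, 1 of 3 fits added after these calls were seen, gave 309 genes in the 8 clusters together, 721 in flight muscle and 97 in cluster 12, a UMI-weighted mean of the other clusters gave 3, 402 and 12, and both together gave 531, 894 and 125. The call in flight muscle rested on both day 2 libraries (2 and 0 genes without 1 of them) and fell to 67 and 66 without a fed library. In cluster 12 no gene passed without a fed or a day 2 library, and 23 did without day 5 replicate 1.

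In flight muscle *Mf*, which encodes the sarcomere protein myofilin, was at 50.8 and 51.4 in fed flies, 66.0 and 63.6 at day 2 and 10.0 and 9.54 at day 5. The fall of 2.72 on the log2 scale (SE 0.03) exceeded the mean of the other clusters (difference -2.15, SE 0.09, adjusted p = 0.00164 from limma). *Mf* also passed as lower in 2 of the 8 other clusters tested. Differences in these 8 ran from -2.14 to 0.24, with a median of -0.48. In cluster 1, where the level is alike, *Mf* went from 66.7 and 68.3 to 51.9 and 50.9. *Mf* lies on 3R at 15170625-15181510, minus strand, and overlaps *Gyc88E* on the opposite strand, whose signal fell by 3.45 on the log2 scale. *CG10365* went from 7.34 and 7.73 to 21.6 and 23.4 (difference 1.58, and 1.16 against the others) and *CG14200* from 8.49 and 8.56 to 25.7 and 26.4 (1.61, and 1.13 against the others). *CG14200* overlaps *Pfrx*, a phosphofructokinase 2 gene, on the same strand, so UMIs of either may be counted for it. *CG44098* went from 3.42 and 3 to 1.57 and 1.61 and was lower by 1.75 than in the others. It overlaps *atms* on the opposite strand, whose signal fell by 1.36 on the log2 scale. For *Mf*, *CG10365*, *CG14200* and *CG44098* both day 5 libraries lay on 1 side of both day 2 libraries, which the rule that named them required. The same held for 4016 of the 5898 genes tested in flight muscle. *Lsd-2*, the perilipin that coats lipid droplets, was chosen after its values were seen, as a gene with opposite changes. It rose in flight muscle from 2.58 and 2.59 to 8.35 and 7.50 (difference 1.61, and 2.07 against the others) and by 0.39 in cluster 1, and fell by 0.66 in the epithelium and by 1.04 in cluster 12.

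In cluster 12 *sug*, a Gli-type transcription factor of nutrient sensing, went from 16.2 and 14.6 in fed flies to 6.37 and 6.81 at day 2 and 0.301 and 0.211 at day 5 (difference -4.68, SE 0.17, adjusted p = 4.49e-05, limma). Against the other clusters the difference was -3.37 (SE 0.23, adjusted p = 0.0105, limma). *sug* was at or below 0.735 in every library of the other 5 clusters in which it was tested, fell by 2.43 in the epithelium and differed by 0.01 in flight muscle. It lies on 2R at 12924567-12930644, plus strand, where *CG13319* overlaps it. *twi*, the twist factor known for muscle precursor cells, went from 2.64 and 2.65 to 0.959 and 1.27 in cluster 12 (difference -1.25, and -1.72 against the others), and in flight muscle from 0.292 and 0.244 to 0.640 and 0.776. *twi* overlaps *CG9896* on the opposite strand, whose signal rose by 1.78 on the log2 scale in flight muscle. *del* (deadlock), a gene of the piRNA pathway in the germline, went from 0.162 and 0.197 to 1.04 and 0.632 in cluster 12 (2.16, and 2.76 against the others), and *CG12811* from 0.118 and 0.163 to 0.575 and 0.893 (2.34, and 3.95 against the others). The remaining 4 genes, named although outside the rule, were *CG7720* and *Ace*, acetylcholinesterase, which were lower than in the others by 2.40 and 1.65, and *Ggt-1* and *Gs1*, a glutamine synthetase, which were higher by 1.57 and 1.21.

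**Figure D5:**
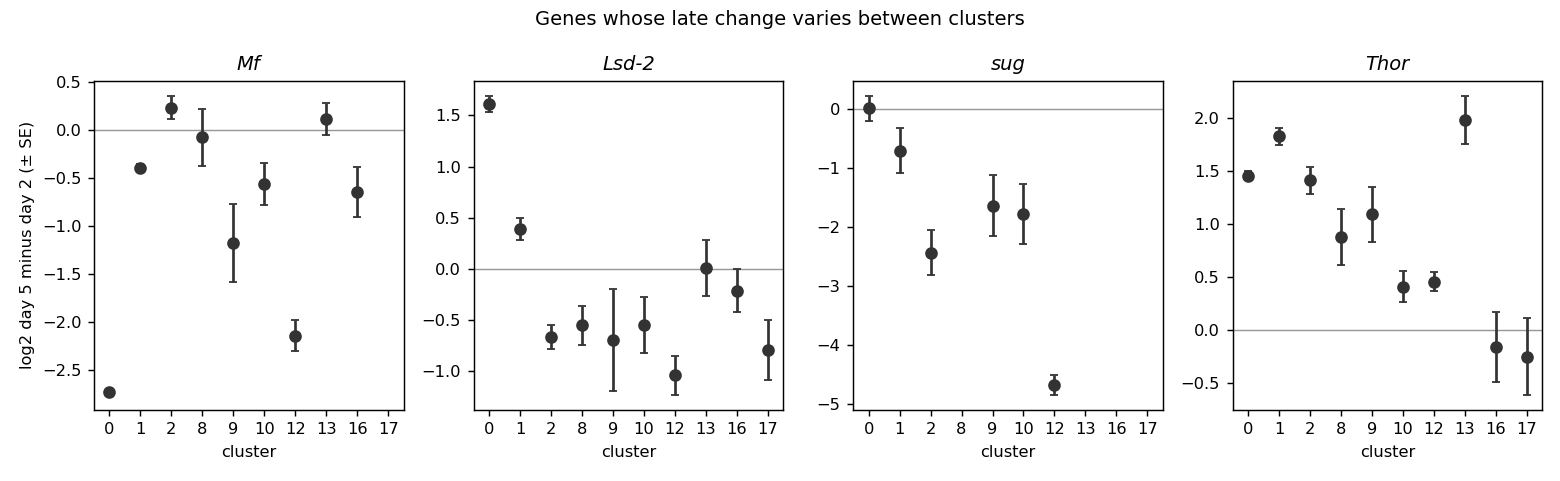
Log2 difference, day 5 minus day 2 (vertical axis, points, bars are ± 1 SE), in each cluster (horizontal axis) for *Mf*, *Lsd-2*, *sug* and *Thor*, the panels chosen after the values were seen. *Mf* is lowest in cluster 0 (-2.72), *sug* in cluster 12 (-4.68), and *Lsd-2* lies above 0 in clusters 0 and 1 and below 0 in clusters 2 and 12; a missing point was not tested.

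Genes that passed against the other clusters only with the trend on the level were seen after that fit was added, and did not pass as the fit was designed. In glia *lncRNA:roX1*, an RNA of X chromosome dosage compensation in males, differed by -2.46 from the others (adjusted p = 0.0013 with that trend and 0.118 as designed, limma), with *RhoGAP100F* (1.46) in the opposite direction. In cluster 1 *Pdk1*, a kinase of the insulin pathway, differed by 0.86, and in cluster 10 *Hex-A*, a hexokinase, by 1.08 (adjusted p = 0.173 and 0.0954 as designed, limma). In hemocytes the semaphorin gene *Sema2b* differed by 2.34 and in neurons the ankyrin gene *Ank2* by 1.36, again short of the threshold as designed (adjusted p = 0.0536 and 0.217, limma).

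The makeup of the body nuclei also moved. Flight muscle was 29.6% and 28.6% of the body nuclei at day 2 and 38.9% and 37.9% at day 5 (log2 difference 0.40, adjusted p = 0.00228, limma over the 10 clusters). Neurons went from 7.78% and 7.52% to 4.28% and 5.09% (-0.71, adjusted p = 0.00296), cluster 10 from 4.27% and 4.96% to 2.85% and 2.96% (-0.66) and the epithelium from 20.3% and 20.9% to 15.7% and 15.4% (-0.40). Glia fell by 0.27, and cluster 13 and hemocytes rose by 0.30 and 0.47. Clusters 1, 12 and 16 differed by 0.02, -0.07 and 0.20 and did not pass the threshold. For neurons the fed libraries held 3.6% and 3.39%, so that the share at day 5 lay nearer to the fed level than that at day 2. Shares sum to a whole, and with all nuclei of a library as the denominator the fall of the epithelium was -0.08 and that of glia became a rise of 0.05.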

How the data were processed

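The authors used 10X Genomics chemistry for the libraries, took UMIs from Cellranger (count 6.1.1) and merged the libraries by aggr. Per the submitters' processing notes the build was BDGP6. The authors deposited natural log values of 12925 genes by 43027 nuclei. A gene's share of the UMIs of a nucleus was multiplied by 10000 and by the ratio of all nuclei to all UMIs of that gene, and ln(1 + x) was taken. This was worked out from the values, and 99.99% of them gave UMIs within 0.05 of a whole number. Libraries were told apart by the barcode suffix. They held between 3776 and 10091 nuclei and, in the body clusters, between 4194062 and 11249282 UMIs.

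UMIs were summed per library and cluster, 0.5 was added, and log2 levels were fitted with limma 3.58.1 (R 4.3.3, eBayes with a trend) over all 6 libraries in 3 groups, with Benjamini-Hochberg adjustment over the genes of a cluster and a threshold of 0.05. A gene needed 40 UMIs from 20 nuclei in the starved libraries. The mean over clusters was taken for genes tested in at least 8, and a cluster was compared with the plain mean of at least 3 others. Shares were fitted with limma on the log2 scale. The fits were also run on simulated counts, drawn independently for each cluster and library. These held no library effect shared by clusters and no carried-over RNA, so they do not test the calls against either.

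The members and the gene lists were chosen with earlier results of these data known. Named genes are up to 10 rising and 10 falling genes called in most clusters, up to 2 each way per cluster with the smallest adjusted p against the others, and list members called in most clusters. For the test against the others, the trend on the level and the UMI-weighted mean were tried after few genes had been called, so 4 specifications were run and the one designed is reported. Alternatives were the mean deposited value, median-ratio scaling, totals without eggshell, yolk and mitochondrial genes, 2 filters, the starved libraries alone, a replicate block, equal nuclei, trimmed nuclei, a prior of 2 and each library left out. The sources used here do not give the step that made the log values or the use of strand, so overlapping genes are uncertain. No doublet removal was applied. Days follow the sample titles, although the names of the starved libraries carry 5 and 7.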

Additional observations from a re-analysis of the deposited data

Results flagged for a closer look

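The late change of 294 genes in flight muscle and of 8 genes in cluster 12 differed from that of the other body clusters by a test of the difference itself (limma, adjusted p under 0.05). In flight muscle the differences on the log2 scale, day 5 minus day 2 against the others, were 1.16 for *CG10365*, 1.13 for *CG14200*, -2.15 for *Mf* and -1.75 for *CG44098*. In cluster 12 they were 2.76 for *del*, 3.95 for *CG12811*, -3.37 for *sug* and -1.72 for *twi*. For *CG12811* the other clusters in which it was tested fell, 3 of 4 past the threshold, and for *CG44098* the median of the others was 1.18, so part of each difference lies in the other clusters. In each case both libraries of day 5 lay on the same side of both of day 2 in the cluster itself, which the rule that named these genes required. The same held for 4016 of 5898 tested genes in flight muscle and 3449 of 6640 in cluster 12.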

How the results depend on the processing

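Of 472 alternative values for named genes, 423 kept their direction and call and 49 kept their direction but missed the threshold. All 49 belong to the 8 genes named against the other clusters, and none reversed. The 20 shared genes held their call in the mean over the clusters in all 320, which does not test their calls in single clusters. The mean over the clusters kept its count within 1.5 times in every alternative but no filter (2028) and without day 2 replicate 1 (737). Changed genes with the mean deposited value numbered 887 (cluster 2), 513 (9), 720 (10), 62 (13), 8 (16) and 29 (17). With only the 4 starved libraries they were 244 (2), 105 (8), 128 (9), 113 (10), 228 (12), 21 (13), 0 (16) and 23 (17), and with the same number of nuclei drawn per library 271 (2), 15 (8), 163 (9), 80 (10), 187 (12) and 9 (16). Without a filter they were 62 (8), 150 (10), 55 (13) and 79 (16), and without the 10% of nuclei with most UMIs 112 (8), 50 (13) and 110 (16). Shared risers were 5 with equal nuclei, and shared fallers 144 with the deposited value, 25 with the starved libraries, 27 with equal nuclei and 100 without the top 10%. Against the others, flight muscle had 713 genes with the deposited value, 131 with the filter of 10 nuclei in 2 libraries, 0 with no filter, 75 with the starved libraries, 115 with equal nuclei, 721 with the trend on the level and 894 with it and the UMI-weighted mean. Cluster 12 had 226, 5, 4, 0, 0, 97 and 125 in that order, and 3 without the top 10%. The other 8 clusters together had 753 with the deposited value, 1 with median-ratio scaling, 17 with no filter, 1 with equal nuclei, 1 with a prior of 2, 309 with the trend on the level, 3 with the UMI-weighted mean and 531 with both. With all nuclei as the denominator, the log2 share moved by 0.34 in cluster 1, -0.0837 in cluster 2, 0.0476 in cluster 8, 0.25 in cluster 12 and 0.52 in cluster 16, and with the starved libraries that of cluster 17, 0.47, missed the threshold. The causes of these shifts were not tested.

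With 1 library left out, where the lone library of a group is assumed to vary like the others, the counts lay between 1845 and 2499 in cluster 0, 678 and 1397 in 1, 93 and 824 in 2, 7 and 387 in 8, 9 and 593 in 9, 0 and 781 in 10, 145 and 597 in 12, 10 and 24 in 13, 0 and 480 in 16, and 0 and 64 in 17. The mean over the clusters gave 737 to 1118 genes, shared risers 0 to 26 and shared fallers 5 to 129. Against the others the counts were 0 to 303 in flight muscle, 0 to 23 in cluster 12 and 0 to 120 in the other 8. The log2 share differences of cluster 17 lay between 0.26 and 0.67 and those of cluster 16 between 0.00347 and 0.397, and the sign held in all 10 clusters.

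The labels number the libraries 1 and 2 in each condition. Deviations of same-numbered day 2 and day 5 libraries correlated between -0.07 and 0.09 across genes in the 10 clusters, so the numbers were not taken as pairs. Those of fed and starved libraries correlated between -0.088 (cluster 16) and 0.158 (cluster 13), both for fed and day 2. In the mean over the clusters fed and day 2 gave 0.132. With the number as a replicate block, 73 genes changed in cluster 13, 15 in cluster 16 and 33 in cluster 17, against the others 138 in flight muscle and 2 in cluster 12, and the mean over the clusters had 1157. The counts in clusters 8, 10, 12, 13, 16 and 17 rest on the fewest nuclei, at most 258 in a starved library, and a gene below 40 UMIs was not tested.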

Other observations

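Of the circadian clock list 2 of 8 tested members rose and 1 fell in flight muscle (13.2% of all genes higher and 28.0% lower), 1 of 7 rose and 1 fell in muscle cluster 1 (8.61% and 16.4%), and 1 of 11 rose in the epithelium (2.37%) and 1 of 10 in cluster 12 (2.86%), while 1 of 5 fell in cluster 13 (0.614%). *vri*, a repressor of the circadian clock, went from 5.15 and 4.94 to 10.2 and 10.2 in muscle cluster 1 (difference 1.02, SE 0.08, adjusted p = 6.81e-07, limma) and rose by 0.66 in flight muscle. *tim* rose in the epithelium, from 2.57 and 2.45 to 4.64 and 5.20, and in cluster 12. The time of day at which the flies were collected was not examined here. *Eip74EF*, an early gene of the ecdysone response, rose in 4 clusters, in flight muscle from 4.60 and 5.32 to 8.71 and 9.69 (difference 0.89, SE 0.07). Of the ecdysone and juvenile hormone list 7 of 15 tested members rose and none fell in cluster 1 (8.61% of all genes higher). In flight muscle 4 rose and 2 fell (13.2% and 28.0% of all genes), where the median-ratio scale gave 11 and 0.

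Of the oxidative stress and glutathione list 7 of 16 tested members rose and 7 fell in flight muscle (8 and 3 on the median-ratio scale), and of the JNK and JAK-STAT target list 4 of 11 rose and none fell, against 13.2% of all genes higher and 28.0% lower. In flight muscle *cnc*, the fly Nrf2, went from 6.06 and 6.22 to 13.9 and 14.2 (difference 1.19, SE 0.05) and *Socs36E*, a target of JAK-STAT signalling, from 0.681 and 0.673 to 1.74 and 1.53 (difference 1.27, SE 0.13). *Sod3*, the extracellular superoxide dismutase, fell in 4 clusters, in flight muscle from 0.629 and 0.799 to 0.199 and 0.312. Of the basement membrane list 5 of 10 tested members fell and 1 rose in flight muscle (28.0% of all genes lower; 2 and 1 on the median-ratio scale), 3 of 11 fell in cluster 1 (16.4%), 3 of 10 in the epithelium (5.19%), 1 of 10 in glia (3.27%) and 1 of 6 in cluster 10 (3.43%), and 1 of 8 rose in hemocytes. *Col4a1* and *vkg*, the collagen IV genes, fell in 4 and 3 clusters. *Col4a1* in the epithelium went from 0.827 and 0.637 to 0.211 and 0.217 (difference -1.70, SE 0.25, adjusted p = 0.00373, limma). Of the antimicrobial peptide list 2 of 6 tested members fell in flight muscle, near the 28.0% of all genes lower there, *Drs* by 0.92 and *Def* by 0.65 on the log2 scale, and with median-ratio factors 1 rose and 1 fell. Of 9 genes that rose in at least 2 clusters and fell in at least 2, 3 are mitochondrially encoded (*mt:CoI*, *mt:CoII* and *mt:ATPase6*), and the others are *Glut4EF*, *Lsd-2*, *CG3036*, *nkd*, *rdgA* and *eIF4A*.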
